A study of Rattus norvegicus with 13 samples.

Results

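Matrix metalloproteinases are zinc enzymes that cut collagens, proteoglycans and other proteins of the extracellular matrix, and tissue inhibitors of metalloproteinases (TIMPs) bind them and block the active site. Most are secreted, or carried on the cell surface, as inactive precursors that other proteases open. In the mammary gland they take part in the outgrowth of ducts and in the return of the gland to its resting state after lactation, and in mammary tumours much of their RNA is known to come from stromal and inflammatory cells. The genes described here are 8 of the enzymes (Mmp2, Mmp3, Mmp7, Mmp9, Mmp11, Mmp12, Mmp13 and Mmp14) and 2 of the inhibitors (Timp1 and Timp3), chosen by name. A probe was taken as theirs where its RefSeq accession mapped to 1 of these symbols. This gave 10 probes, 1 for each of the 10 genes, of 41012 probes and 13351 genes with a symbol on the array.

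Expression was measured in female Sprague-Dawley rats, an outbred stock in which ionising radiation induces mammary carcinoma, on 1-colour Agilent arrays, with 1 array per sample. The IR-3W group held 4 carcinomas of rats that had received 2 Gy of 137Cs gamma rays over the whole body at 3 weeks of age, before puberty. The IR-7W group held 6 carcinomas of rats irradiated with 2 Gy at 7 weeks of age, after puberty. Both were irradiated at 0.6 Gy per minute, were given AIN-76A diet with 23.5% corn oil from 9 weeks of age on, and had palpable tumours collected at 50 weeks. The normal group held 3 mammary tissues of rats left without irradiation, whose labels call them matched in age in some places and 7 weeks old in another, and do not state whether they had the corn oil diet. Whether samples of 1 group were taken from different rats is not stated in the labels, so a p-value here reflects the spread among these samples, which may be technical. No carcinoma of an unirradiated rat was analysed here.

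Every value below is the log2 of the array's processed signal minus the log2 of that array's 75th percentile, so a value of 0 is the 75th percentile of the array and 1 unit is a factor of 2 in signal. The 75th percentile was 276 to 1049 signal units on IR-3W arrays, 615 to 1242 on IR-7W arrays and 82.3 to 179 on normal arrays. The share of spots well above background was 58.0 to 71.0% on the carcinoma arrays and 48.7 to 54.2% on the normal arrays. IR-3W carcinoma 3 was the dimmest carcinoma array in both measures, so the differences that it moved most are given with and without it. The 3 normal arrays shared a slide that held no carcinoma. Their file headers name a scanner other than that of the carcinoma arrays. Scanner, slide and group therefore cannot be told apart in any comparison with normal tissue. Among the carcinomas, slide 1 carried IR-7W 2, 3, 4 and 6. Slide 2 carried both IR-3W 1 and 2 and IR-7W 1 and 5, and slide 3 carried IR-3W 3 and 4. All 6 luminal epithelial markers fixed for the tissue check (Krt8, Krt18, Krt19, Epcam, Cdh1 and Elf5) were well above background on every array. Their summed signal was 199 to 577 times the 75th percentile in IR-3W carcinomas, 392 to 668 in IR-7W carcinomas and 371 to 443 in normal tissue.

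The DNA before the start sites of the 2 enzymes that differed most from normal tissue is shown first. It is followed by that of Mmp12 and Mmp7, enzymes of the same gene cluster that passed in no comparison of all samples, and by that of the inhibitor Timp1. The promoters of Mmp11 and Timp3 were searched too but are not printed. RefSeq promoters of assembly GRCr8 were at hand for 7 of the 10 genes, those of Mmp2, Mmp9 and Mmp14 not among them. Each was searched on both strands, over the 250 bases before the start, for the AP-1 letters TGANTCA, which are their own reverse complement, and for the TATA letters TATAAA. AP-1 is the family of Fos and Jun transcription factors. Capitals mark those letters, and each sequence runs 5′ to 3′ on the gene's strand.
Mmp13, 250 bases, chr8:12782579-12782828, plus strand: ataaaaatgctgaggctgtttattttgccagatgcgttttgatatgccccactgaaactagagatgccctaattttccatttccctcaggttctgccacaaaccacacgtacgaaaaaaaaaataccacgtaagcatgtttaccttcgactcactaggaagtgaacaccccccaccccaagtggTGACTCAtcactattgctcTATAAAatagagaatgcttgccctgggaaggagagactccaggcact
Mmp3, 250 bases, chr8:12925031-12925280, plus strand: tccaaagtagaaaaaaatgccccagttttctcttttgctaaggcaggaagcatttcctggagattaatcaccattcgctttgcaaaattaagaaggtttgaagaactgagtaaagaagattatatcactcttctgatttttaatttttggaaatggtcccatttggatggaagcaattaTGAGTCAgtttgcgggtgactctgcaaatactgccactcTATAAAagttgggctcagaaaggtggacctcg
Mmp12, 80 bases around the AP-1 letters, chr8:12866545-12866624, plus strand: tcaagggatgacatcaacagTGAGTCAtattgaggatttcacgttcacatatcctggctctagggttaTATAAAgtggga
Mmp7, 80 bases around the AP-1 letters, chr8:13132943-13133022, plus strand: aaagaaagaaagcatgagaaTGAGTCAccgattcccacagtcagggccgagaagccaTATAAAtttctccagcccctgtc
Timp1, 250 bases, chrX:3771123-3771372, minus strand: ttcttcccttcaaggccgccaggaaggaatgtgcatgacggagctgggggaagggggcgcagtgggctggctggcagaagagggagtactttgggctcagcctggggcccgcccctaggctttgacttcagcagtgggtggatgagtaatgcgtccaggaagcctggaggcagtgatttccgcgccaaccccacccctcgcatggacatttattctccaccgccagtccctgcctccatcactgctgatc
The AP-1 letters were found in 4 of the 7 promoters, all of them of enzymes. They stood at bases -66 to -60 of Mmp13, where the first base before the start is -1, and at -71 to -65 of Mmp3. In Mmp12 they stood at -87 to -81 and in Mmp7 at -80 to -74. The same 4 promoters held TATAAA downstream of them, beginning at -47 in Mmp13, -32 in Mmp3, -39 in Mmp12 and -43 in Mmp7. Mmp7 held another TATAAA at -140 to -135, upstream of its AP-1 letters and outside the stretch printed. The windows of Mmp11, Timp1 and Timp3 held neither string. Only exact letters were searched, so near matches, such as tgagtaa in the Timp1 window, were not counted. Among all 33469 promoters of the table, 6.34% held TGANTCA and 12.9% held TATAAA in the same window. These matches describe the letters only.

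The collagenase Mmp13 and the stromelysin Mmp3 were higher in all 6 IR-7W carcinomas than in any normal tissue, and higher in 3 of 4 IR-3W carcinomas. Mmp13 is the main collagenase of rats and mice and cuts fibrillar collagen within its triple helix. Its values were 5.06, 5.11, -2.29 and 2.31 in IR-3W carcinomas 1 to 4. In IR-7W carcinomas they had a low of 1.37, a median of 3.48 and a high of 5.03, and in normal tissues 1 to 3 they were -2.71, 0.26 and -2.43. IR-3W carcinoma 3 lay among the normal tissues, and the other 9 carcinomas lay above all of them. The difference of IR-7W carcinomas from normal was 4.98 ± 1.44 (log2 difference ± SE), a factor of 31.6 in signal, with an adjusted p of 0.0274 in limma, so Mmp13 rose. The call was close to the threshold. The adjusted p was 0.0504 without IR-7W 1, 0.0502 without IR-7W 2, 0.115 without normal 1 and 0.0956 without normal 3, with differences of 4.65, 4.70, 4.44 and 4.58. For IR-3W carcinomas the difference from normal was 4.17 ± 1.55 and did not pass (adjusted p = 0.0908), whereas without IR-3W 3 it was 5.79 and passed (adjusted p = 0.00431).

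Mmp3 encodes stromelysin 1, which cuts proteoglycans, laminin and fibronectin and opens the precursors of several other metalloproteinases. It read 5.37, 4.17, -0.77 and 4.49 in IR-3W carcinomas 1 to 4. In IR-7W carcinomas its low was 2.45, its median 3.76 and its high 6.39, and the normal tissues gave 0.20, 0.17 and -1.60. As for Mmp13, IR-3W carcinoma 3 fell within the range of the normal tissues, while every other carcinoma was above it. Mmp3 rose by 4.41 ± 1.15 in IR-7W carcinomas against normal tissue, a factor of 21.3 (adjusted p = 0.0173), but leaving out normal 3 gave 3.82 with an adjusted p of 0.0786. IR-3W carcinomas differed from normal by 3.72 ± 1.25 with an adjusted p of 0.0638, and without IR-3W 3 by 5.09 with an adjusted p of 0.0016. The carcinoma groups were not told apart for either enzyme. IR-3W minus IR-7W was -0.81 (95% interval -3.65 to 2.03) for Mmp13 and -0.69 (-2.97 to 1.59) for Mmp3, and without IR-3W 3 these differences were 0.81 and 0.67.

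**Figure D1:**
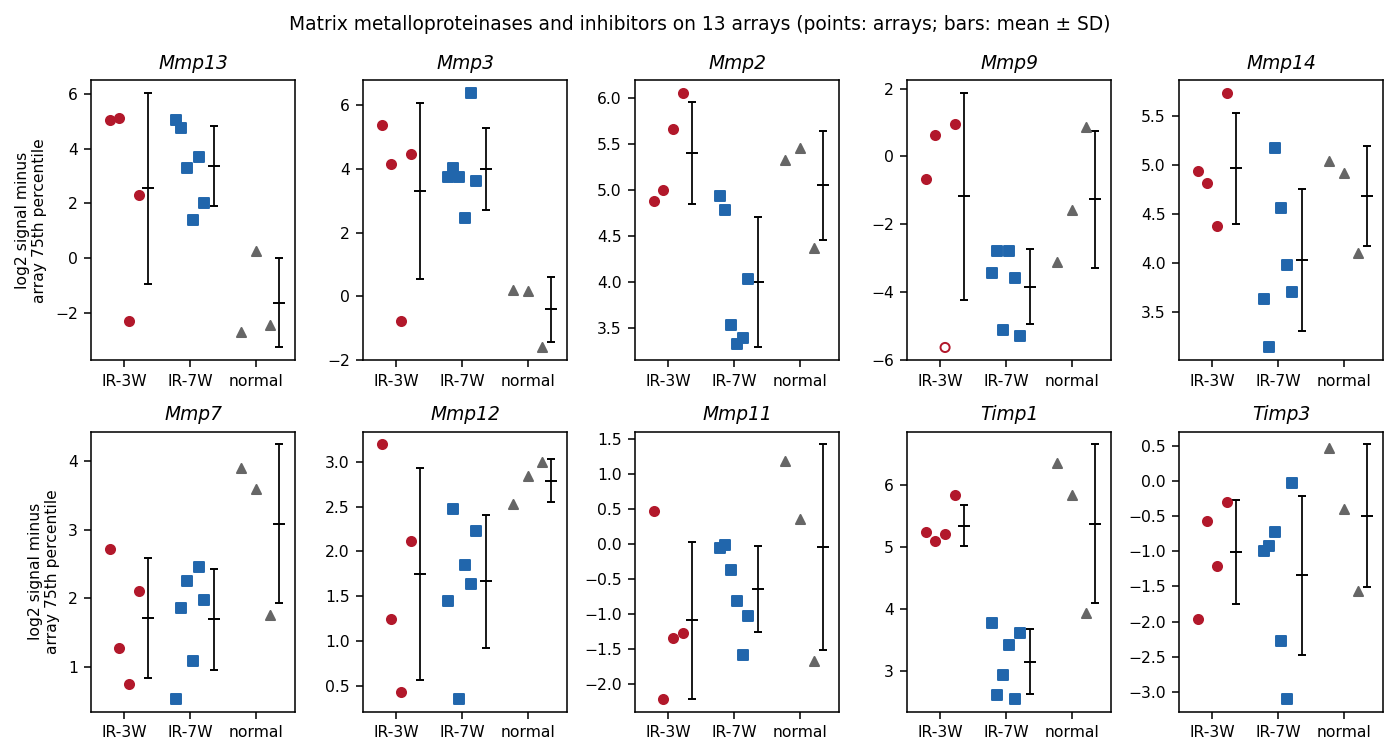
Scaled log2 signal (0 is the 75th percentile of the array) of the 10 genes, 1 panel per gene with its own vertical scale. Points are arrays, grouped as IR-3W (4), IR-7W (6) and normal (3), black bars are the mean ± SD, and the open point is an array on which the probe was not well above background (Mmp9, IR-3W 3). Mmp13 and Mmp3 are high in every carcinoma but IR-3W 3, and the 6 IR-7W values of Timp1 lie below all others, with normal 3 (3.93) just above them.

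Among the gelatinases, neither Mmp2 nor Mmp9 passed the test in any comparison. Mmp2 encodes gelatinase A, a product of stromal cells that cuts denatured collagen and the type IV collagen of basement membranes. Its values were 4.88, 5.01, 5.67 and 6.06 in IR-3W carcinomas. The IR-7W carcinomas had a low of 3.32, a median of 3.78 and a high of 4.94, and the normal tissues read 5.33, 5.46 and 4.37. IR-7W carcinoma 1, at 4.94, lay just above IR-3W carcinoma 1, and the other 5 were below all IR-3W carcinomas. The differences were 0.35 ± 0.47 for IR-3W minus normal, -1.05 ± 0.43 for IR-7W minus normal (adjusted p = 0.103), and then 1.41 ± 0.40 for IR-3W minus IR-7W (adjusted p = 0.135). Within slide 2 the last difference was 0.79.

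Mmp9 encodes gelatinase B, which neutrophils store in granules and macrophages secrete. Taken at its signal on every array, it was the most variable of the genes within IR-3W after Mmp13, with values of -0.67, 0.63, -5.64 and 0.96. On the third array the probe was not well above background. The dimmest probe well above background there read -4.60, so -5.64 is not a measured level. In IR-7W carcinomas it had a low of -5.29, a median of -3.53 and a high of -2.78, and the normal tissues gave -3.10, -1.59 and 0.88. The 3 IR-3W carcinomas in which it was detected lay above all 6 IR-7W carcinomas, and the normal tissues reached across both. IR-3W minus IR-7W was 2.66 ± 1.18 (adjusted p = 0.385), a fitted value that takes the undetected array at its signal. Without IR-3W 3 it was 4.15 (adjusted p = 0.0513), and within slide 2 it was 3.50. IR-7W minus normal was -2.57 ± 1.29 (adjusted p = 0.18, and 0.041 without IR-3W 3, which left the difference as it was). Without normal 3, IR-7W minus normal was -1.49. IR-3W minus normal was 0.09 ± 1.40, and single arrays moved it from -0.83 (without normal 1) to 1.58 (without IR-3W 3). The summed signal of the 7 neutrophil markers on the array was 49.8 times the 75th percentile in IR-3W carcinoma 1 and between 0.197 and 1.25 in the other 12 samples. Of the 7, 2 to 5 were well above background on IR-3W arrays, 2 to 4 on IR-7W arrays and 1 to 2 on normal arrays. The sums therefore include markers that were not detected. IR-3W carcinomas 4 and 2, with the 2 highest Mmp9 values among carcinomas, had neutrophil sums of 0.963 and 1.13. The part of neutrophils in the Mmp9 values was not tested.

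Mmp14, the membrane-bound enzyme that activates the precursor of Mmp2 on the cell surface and itself cuts fibrillar collagen, varied less. It read 4.93, 4.82, 4.38 and 5.73 in IR-3W carcinomas, had a low of 3.14, a median of 3.84 and a high of 5.17 in IR-7W carcinomas, and read 5.03, 4.92 and 4.10 in normal tissues. The 3 groups overlapped. IR-3W minus IR-7W was 0.93 ± 0.39 (adjusted p = 0.352), and 1.07 within slide 2. The differences from normal were 0.28 ± 0.46 in IR-3W and -0.65 ± 0.43 in IR-7W carcinomas, and the IR-3W value was 0.48 without IR-3W 3 and -0.01 without normal 3.

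The other 3 enzymes had lower group means in both carcinoma groups than in normal tissue, and none of these differences passed. Mmp7 encodes matrilysin, a small secreted enzyme made mostly by epithelial cells. It read 2.72, 1.28, 0.75 and 2.11 in IR-3W carcinomas, between 0.53 and 2.46 in IR-7W carcinomas with a median of 1.92, and 3.90, 3.59 and 1.76 in normal tissues. Normal tissue 3 lay within the carcinomas and the other 2 above all 10 of them. The differences from normal were -1.37 ± 0.61 in IR-3W (adjusted p = 0.157) and -1.39 ± 0.57 in IR-7W carcinomas (adjusted p = 0.101). Without normal 3 they were -2.03 (adjusted p = 0.0499) and -2.05 (adjusted p = 0.031), so that 1 normal sample decides both calls.

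Mmp12 encodes macrophage elastase, which cuts elastin. It read 3.20, 1.25, 0.43 and 2.12 in IR-3W carcinomas, between 0.35 and 2.47 in IR-7W carcinomas with a median of 1.74, and 2.53, 2.84 and 3.00 in normal tissues. All 6 IR-7W carcinomas lay below the normal tissues and IR-3W carcinoma 1 lay above them. The difference from normal was -1.04 ± 0.59 in IR-3W and -1.12 ± 0.55 in IR-7W carcinomas (adjusted p = 0.264 and 0.168), and the IR-3W value was -0.60 without IR-3W 3. The summed signal of the 9 macrophage markers on the array was 46.1 to 217 in IR-3W, 36.2 to 69.1 in IR-7W and 116 to 151 in normal samples, and its highest value was in IR-3W carcinoma 1. The fewest of these markers well above background on any array was 8. Against normal, 1 marker rose and 1 fell in IR-3W carcinomas, beside 9.3% and 5.37% of all probes. In IR-7W carcinomas 3 fell, beside 8.63%. The part of macrophages in the Mmp12 values was not tested.

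Mmp11 encodes stromelysin 3, an enzyme of stromal cells that is released already active. It read 0.46, -2.20, -1.35 and -1.27 in IR-3W carcinomas, between -1.58 and -0.02 in IR-7W carcinomas with a median of -0.59, and 1.18, 0.35 and -1.67 in normal tissues. The groups overlapped in every comparison, and the differences from normal were -1.04 ± 0.69 in IR-3W and -0.60 ± 0.64 in IR-7W carcinomas. Without normal 3 they were -1.85 and -1.41, and without normal 1 they were -0.43 and 0.02.

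Of the inhibitors, Timp1 separated the carcinoma groups. Timp1 is a secreted inhibitor of most metalloproteinases that also binds the precursor of Mmp9. It read 5.25, 5.10, 5.21 and 5.83 in IR-3W carcinomas. In IR-7W carcinomas 1 to 6 it read 3.78, 2.62, 2.95, 3.42, 2.55 and 3.62, and in normal tissues 6.36, 5.84 and 3.93. Every IR-7W carcinoma was below every IR-3W carcinoma and every normal tissue, with normal 3 the nearest to them. IR-7W carcinomas averaged 3.16 ± 0.52 (SD, n = 6) and normal tissues 5.38 ± 1.28 (SD, n = 3), and Timp1 fell by 2.22 ± 0.47 (SE; adjusted p = 0.00532). This call held in all 24 alternatives run, with differences from -2.94 to -1.73 and adjusted p up to 0.0387. IR-3W carcinomas averaged 5.35 ± 0.33 (SD, n = 4), and their difference from normal was -0.03 ± 0.50 (95% interval -1.12 to 1.06), with -0.75 without normal 3 and 0.46 without normal 1.

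Against IR-7W carcinomas, Timp1 was 2.19 ± 0.43 higher in IR-3W carcinomas, a factor of 4.56 (adjusted p = 0.039). The size of this difference was steady, at 1.96 to 2.36 over 26 alternatives, but its adjusted p was above 0.05 in 14 of them. It was lost without any 1 of IR-3W 2, 3 or 4 (2.27, 2.24 and 2.03, adjusted p = 0.0782, 0.0636 and 0.142). It was also lost without IR-7W 2, 3, 4, 5 or 6 (2.08, 2.15, 2.24, 2.07 and 2.28, with adjusted p of 0.0854, 0.0918, 0.0577, 0.0839 and 0.0602) and without normal 2 (2.19, adjusted p = 0.0604). Within slide 2, where IR-3W 1 and 2 stood beside IR-7W 1 and 5, the difference was 2.00, and no probe of the array passed in that comparison. Timp1 was spotted 10 times per array, and the SD between those spots was 0.03 to 0.16, below the SD between samples of any group.

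Timp3, an inhibitor that stays bound to the matrix and also blocks ADAM family enzymes, passed in no comparison. It read -1.97, -0.57, -1.21 and -0.30 in IR-3W carcinomas. In IR-7W carcinomas it had a low of -3.10, a median of -0.96 and a high of -0.03, and normal tissues read 0.46, -0.40 and -1.56. The groups overlapped. IR-3W minus IR-7W was 0.33 (95% interval -0.95 to 1.60), and the differences from normal were -0.52 ± 0.70 in IR-3W and -0.84 ± 0.65 in IR-7W carcinomas. Without normal 1 the differences from normal were -0.04 and -0.36, and without normal 3 they were -1.05 and -1.37.

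Counted over the 10 genes, 0 passed for IR-3W minus normal in limma, beside 14.7% of 29289 probes tested (9.3% higher and 5.37% lower), and 3 had an unadjusted p under 0.05 (Mmp3, Mmp13 and Mmp7), beside 29.6% of all probes. Without IR-3W 3, 2 passed (Mmp3 and Mmp13), and without normal 3, 1 passed (Mmp7). For IR-7W minus normal, 3 passed, 2 of them higher and 1 lower, beside 20.8% of all probes (12.2% higher and 8.63% lower). An unadjusted p under 0.05 was found there for 5 (Mmp2, Mmp3, Mmp7, Mmp13 and Timp1), beside 34.6% of all probes. For IR-3W minus IR-7W, 1 passed and was higher, beside 0.789% of 29290 probes (0.625% higher). In that comparison 4 had an unadjusted p under 0.05 (Mmp2, Mmp9, Mmp14 and Timp1), beside 12.4% of all probes. The median difference of the 10 genes was 0.03 for IR-3W against normal, -0.95 for IR-7W against normal and 0.20 between the carcinoma groups (IR-3W minus IR-7W), and that of all probes was -0.01, -0.01 and -0.02. The first 2 comparisons share the normal samples. In IR-3W against normal the groups overlapped for all 10 genes, where 24.7% of all probes had no overlap (13.3% higher and 11.4% lower). In IR-7W against normal they did not overlap for Mmp3 and Mmp13, which were higher, and for Mmp12 and Timp1, which were lower, beside 28.7% of all probes (15.1% higher and 13.5% lower). In IR-3W against IR-7W they did not overlap for Timp1, which was higher, beside 2.94% of all probes (1.5% higher and 1.44% lower).

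**Figure D2:**
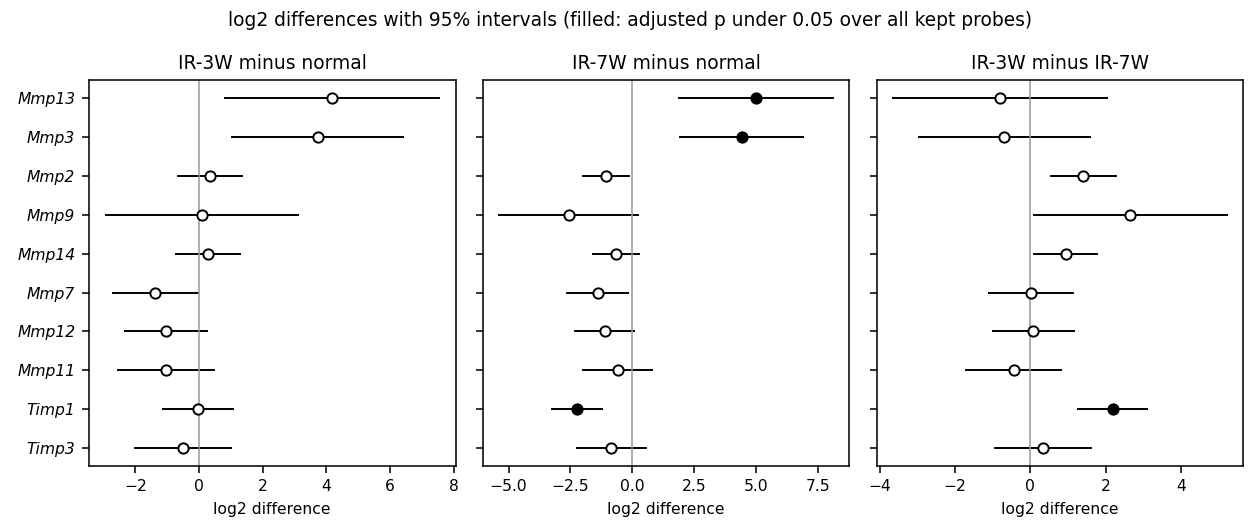
Log2 differences (horizontal axes, log2 units, a separate scale per panel) of the 10 genes in 3 panels (IR-3W minus normal, then IR-7W minus normal, then IR-3W minus IR-7W), with lines for the 95% interval from limma. Filled points passed an adjusted p of 0.05 over all probes kept: Mmp13, Mmp3 and Timp1 in the middle panel and Timp1 in the right panel.

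Within each group the genes did not share a single order of samples. IR-3W carcinoma 3 was the lowest of its group for 6 of the 10 genes (Mmp3, Mmp7, Mmp9, Mmp12, Mmp13 and Mmp14) and the highest for 0, while IR-3W carcinoma 4 was highest for 5, among them Mmp2, Mmp14 and both inhibitors. Normal tissue 3 was the lowest normal sample for 7 genes and the highest for Mmp9 and Mmp12. The spread within IR-3W differed widely between genes, from an SD of 0.33 for Timp1 to 3.48 for Mmp13.

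The likeness of 2 genes was measured as the root mean square difference of their values over the 13 arrays after each gene's own mean was removed, among 10277 genes with a symbol, with smaller values more alike. The gene most like Mmp13 was Mmp3, at 1.30 log2 units, followed by Pygl, the liver form of glycogen phosphorylase, at 1.49. For Mmp3 the nearest were Fgl1, a fibrinogen-like secreted protein, at 1.15 and Pwwp3b at 1.24. For Timp1 they were Aox3, an aldehyde oxidase, at 0.46 and Lgals1, the sugar-binding protein galectin 1, at 0.59. Among the 10 genes the closest pair was Mmp2 and Timp1, at 0.76, and the farthest was Mmp13 and Timp1, at 3.54. The measure is a description of these 13 arrays, which share their slides and groups.

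Mmp13, Mmp12, Mmp3 and Mmp7 lie in that order in a cluster on rat chromosome 8, which in the RefSeq annotation holds 10 metalloproteinase genes and 2 pseudogenes from Mmp13 to Mmp7. Probes were named for 9 of the 10, and 7 were bright enough to be tested. Of the 7, Mmp13 and Mmp3 rose in IR-7W carcinomas and the other 5 did not pass. Mmp12, which lies between those 2, and Mmp7 at the far end had the differences below 0 given above. Mmp8, the collagenase of neutrophils, was well above background on 3 of 4 IR-3W, 4 of 6 IR-7W and 1 of 3 normal arrays and differed from normal by 0.80 ± 1.52 and 0.53 ± 1.41. Mmp10, stromelysin 2, was well above background on 3 IR-3W, 1 IR-7W and 0 normal arrays. Mmp27 differed from normal by -2.02 ± 0.98 in IR-3W and -1.85 ± 0.90 in IR-7W carcinomas (adjusted p = 0.189 and 0.168). Mmp8, Mmp10 and Mmp27 were named here after their values were seen.

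Of the other metalloproteinases and inhibitors, 16 genes were listed and 12 tested. In IR-3W carcinomas 2 rose and 0 fell against normal in limma, beside 9.3% and 5.37% of all probes, with 4 at an unadjusted p under 0.05 (29.6%). In IR-7W carcinomas 2 rose and 3 fell, beside 12.2% and 8.63% of all probes. Mmp16, a membrane-type enzyme, read 0.05, 0.71, -0.57 and -1.03 in IR-3W carcinomas, between -2.28 and 0.09 in IR-7W carcinomas, and -4.85, -3.39 and -3.91 in normal tissues, on 2 of which it was well above background. Every carcinoma was above every normal tissue, and it rose by 3.84 ± 0.59 in IR-3W and by 3.12 ± 0.55 in IR-7W carcinomas (adjusted p = 0.000954 and 0.00168). With the normexp background correction these differences were 1.28 and 0.74 and did not pass. Mmp15, another membrane-type enzyme, rose by 1.06 ± 0.32 in IR-3W carcinomas (adjusted p = 0.0445) and by 1.17 ± 0.30 in IR-7W carcinomas (adjusted p = 0.0155), but it was well above background on only 1 normal array. The IR-3W call of Mmp15 was lost in 16 of 23 alternatives, among them the omission of any IR-3W or normal sample or of IR-7W 1, 4, 5 or 6 (differences of 0.90 to 1.17, adjusted p of 0.0518 to 0.144). In IR-7W carcinomas, leaving out normal 2 or normal 3 gave 1.09 and 1.12 with adjusted p of 0.069 and 0.0533, and normexp gave -0.40. Mmp28, named after its values were seen, was well above background on 0 of 3 normal arrays. It read -4.75, -2.26, -3.78 and -2.80 in IR-3W carcinomas and -4.95, -5.35 and -4.37 in normal tissues, so these groups overlapped. Their means differed by a factor of at least 1.93, and the difference did not pass (adjusted p = 0.0606).

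Mmp23, a small enzyme anchored in the membrane, fell by 3.18 ± 0.48 in IR-7W carcinomas against normal tissue (adjusted p = 0.000623). It read 0.75, 0.47, 2.10 and 0.69 in IR-3W carcinomas, between -1.91 and 0.17 in IR-7W carcinomas and 2.35, 1.85 and 2.35 in normal tissues. The IR-7W carcinomas lay below all others, and IR-3W minus IR-7W was 2.00 ± 0.44 with an adjusted p of 0.0582. Timp2, the inhibitor that Mmp14 binds when it activates Mmp2, fell by 1.11 ± 0.26 in IR-7W carcinomas (adjusted p = 0.0106), which did not hold when normal 1 (-1.01, adjusted p = 0.0551) or normal 2 (-1.05, adjusted p = 0.0514) was left out. The call was also lost in limma under normexp (-0.52, adjusted p = 0.128) and with replicate number as a block (-1.09, adjusted p = 0.108). Timp2 differed by -0.03 ± 0.28 from normal in IR-3W carcinomas, and IR-3W minus IR-7W was 1.08 ± 0.24 (adjusted p = 0.0622). Timp4, named after its values were seen, fell by 2.23 ± 0.71 in IR-7W carcinomas (adjusted p = 0.0416), and this call was lost in 8 of 24 alternatives. Among them were the omissions of IR-3W 4, IR-7W 4, 5 or 6 and any normal sample, with differences from -2.43 to -1.85 and adjusted p from 0.0523 to 0.139. Between the carcinoma groups 0 of the 12 passed in limma, and 4 had an unadjusted p under 0.05 (12.4% of all probes).

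**Figure D3:**
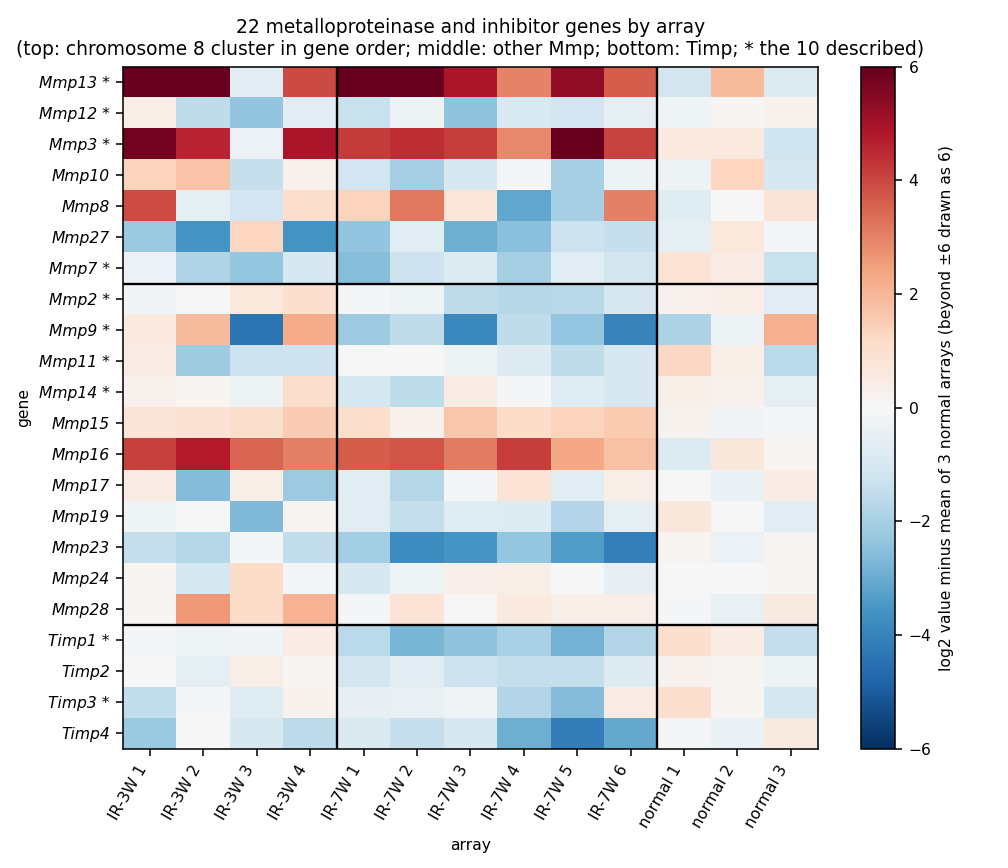
Log2 value minus the mean of the 3 normal arrays (colour scale, red above and blue below, values beyond 6 drawn as 6) for 22 metalloproteinase and inhibitor genes (rows) on 13 arrays (columns, in the order IR-3W, IR-7W, normal). The top block is the chromosome 8 cluster in gene order, the middle block the other enzymes and the bottom block the inhibitors. Mmp13 and Mmp3 are red in every carcinoma but IR-3W 3, Mmp16 is red in all 10 carcinomas, and Mmp23 and Timp1 are bluest in the IR-7W arrays.

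Genes upstream of the metalloproteinases were read beside the shares of all probes that passed, 14.7% for IR-3W against normal, 20.8% for IR-7W against normal and 0.789% between the carcinoma groups. Of 21 tested genes of plasminogen and metalloproteinase activation, 2 rose in IR-3W carcinomas and 1 rose and 1 fell in IR-7W carcinomas against normal, and 1 was higher in IR-3W than in IR-7W carcinomas. Spint2, a membrane inhibitor of the epithelial proteases hepsin and matriptase, rose by 3.83 ± 0.35 in IR-3W and 3.96 ± 0.32 in IR-7W carcinomas (adjusted p = 2.53e-05 and 7.57e-06), in all 24 alternatives. The other calls of this list were less steady. The other rise in IR-3W carcinomas was lost in 15 of 24 alternatives, and the fall in IR-7W carcinomas in 9 of 24. The call between the carcinoma groups was lost in 13 of 26. Plaur, the receptor that gathers urokinase at the cell surface, differed by 1.48 ± 0.31 between IR-3W and IR-7W carcinomas (adjusted p = 0.0511).

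Of 20 tested genes of other matrix proteases and their regulators, 2 rose in IR-3W carcinomas, 3 fell in IR-7W carcinomas, and 3 were higher in IR-3W than in IR-7W carcinomas. Cst3, the cathepsin inhibitor cystatin C, fell by 1.46 ± 0.26 in IR-7W carcinomas (adjusted p = 0.00194), in all 24 alternatives. Bmp1, which trims procollagen, was higher in IR-3W than in IR-7W carcinomas by 1.39 ± 0.23 (adjusted p = 0.0224). The call was lost in 6 of 26 alternatives, among them without IR-3W 4 (1.22, adjusted p = 0.0955) or IR-7W 3 (1.35, adjusted p = 0.0609). Within slide 2 the Bmp1 difference was 1.08 and did not pass. Of 19 tested signals and transcription factors that induce metalloproteinase genes, Jun, a subunit of AP-1, rose in both carcinoma groups and no other gene passed in any comparison. An unadjusted p under 0.05 was found for 2 of the 19 in IR-3W against normal (29.6% of all probes), 7 in IR-7W against normal (34.6%) and 4 in IR-3W against IR-7W (12.4%). Jun rose by 1.23 ± 0.26 in IR-3W carcinomas (adjusted p = 0.00778). In IR-7W carcinomas it rose by 0.94 ± 0.24 (adjusted p = 0.0163), which did not hold when normal 1 (0.93, adjusted p = 0.0592) or normal 3 (0.82, adjusted p = 0.0712) was left out. This IR-7W call was also lost in limma with median scaling (0.81, adjusted p = 0.0501) and with replicate number as a block (0.98, adjusted p = 0.0882).

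Markers of other cells moved with the groups, and in whole tissue fewer cells of a type cannot be told apart from less RNA per cell. The 9 fibroblast markers (Col1a1, Col1a2, Col3a1, Dcn, Lum, Pdgfra, Pdgfrb, Fap and Postn) were all well above background on every array. Their summed signal was 468 to 1513 times the 75th percentile in IR-3W carcinomas, 131 to 304 in IR-7W carcinomas and 218 to 278 in normal tissues. Of the 9, 7 were higher in IR-3W than in IR-7W carcinomas, beside 0.625% of all probes. Against normal, 4 rose in IR-3W carcinomas, beside 9.3%, and 3 fell in IR-7W carcinomas, beside 8.63%. Within slide 2, 0 probes of the array passed between the carcinoma groups, and the call of Fap was lost in 9 of 26 alternatives. Timp1 was likewise higher in IR-3W than in IR-7W carcinomas. Normal tissues 1 to 3 had Timp1 values of 6.36, 5.84 and 3.93 at fibroblast sums of 278, 250 and 218. IR-7W carcinoma 1 had a sum of 304, and the other IR-7W sums were below those of normal tissues. The sum weighs the brightest markers most, and single markers differed in pattern. Dcn averaged 5.61 in IR-3W, 4.06 in IR-7W and 5.56 in normal samples, and Pdgfra 2.52, 1.06 and 2.72. Col1a1 averaged 7.19, 5.83 and 4.85, and Col1a2 7.29, 5.46 and 4.60. IR-3W carcinoma 3, with the lowest Mmp13 and Mmp3 of all carcinomas, had the highest fibroblast sum (1513) and the highest sums of endothelial (81.7) and adipocyte (83.2) markers among carcinomas. Adipocyte markers summed to 7.67 to 83.2 in IR-3W carcinomas, 7.58 to 11.6 in IR-7W carcinomas and 257 to 305 in normal tissues. All 5 tested fell against normal in both carcinoma groups, beside 5.37% of all probes in IR-3W and 8.63% in IR-7W. The part of these cells in the differences of Timp1, Mmp2, Mmp3 and Mmp13 was not tested.

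**Figure D4:**
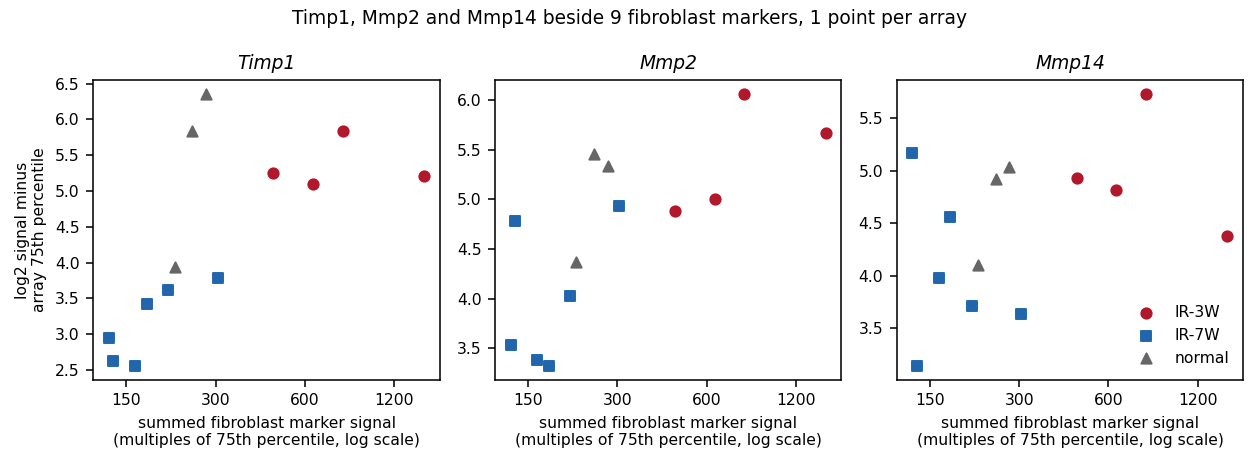
Scaled log2 signal (vertical axes, 0 is the 75th percentile of the array) of Timp1, Mmp2 and Mmp14 against the summed signal of 9 fibroblast markers (horizontal axes, multiples of the 75th percentile on a log scale), 1 point per array for IR-3W (circles), IR-7W (squares) and normal (triangles). All 4 IR-3W carcinomas lie to the right, at sums of 468 or more. Normal tissues 1 to 3 have Timp1 values of 6.36, 5.84 and 3.93 at sums of 278, 250 and 218.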

How the data were processed

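Each of the 13 samples had 1 scanner file from Agilent Feature Extraction 10.7.3.1, per the submitters' processing notes. The deposited values were the processed Cy3 signal of each spot, on a linear intensity scale with background removed, per the file headers. A deposited table of log2 values, whose scale and centring are not stated in the sources used here, was used only as an alternative. Its values matched the scaled log2 signals with the normal mean removed, to within 0.05 for 99.7 to 99.9% of entries and after an offset of -0.01 to 0.03, so it runs as sample over normal. Its columns had medians from -0.20 to 0.05.

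Of 45018 spots per array, 1639 controls and spots marked as outliers were left out, log2 signals were scaled to the array's 75th percentile, and spots of a probe were averaged. A minimum of 3 arrays well above background kept 29290 of 41012 probes, all 10 described here among them. Names came from 16815 probes matched to RefSeq symbols of assembly GRCr8. All 13 arrays entered a single limma 3.58.1 model (R 4.3.3, read with data.table, version 1.17.8) with 3 groups and no covariates. Benjamini-Hochberg adjustment of two-sided p-values ran over all kept probes, with 0.05 as the threshold, and the steps were tested on simulated data. The number of arrays limits the precision. Genes outside the 10 were named by rule, up to 4 per list with the smallest p in any comparison. Exceptions are those given above as named after their values were seen. The 10 genes, the lists and the tests were chosen with earlier results of these data known. Same-numbered samples of different groups did not deviate together (r of -0.22 to 0.08 over 10 pairs), so the numbers were not taken to pair them. Alternatives covered background correction, scaling, filters, weights, blocks and leaving out each array.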

Additional observations from a re-analysis of the deposited data

Results flagged for a closer look

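Timp1 differed between the carcinoma groups by the test of that difference, at 2.19 (log2, IR-3W minus IR-7W). Its difference from normal tissue was -0.03 in IR-3W and -2.22 in IR-7W carcinomas, and the 4 IR-3W values (5.10 to 5.83) lay above the 6 IR-7W values (2.55 to 3.78). The call is close to the threshold and depends on most single arrays, as given above.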

How the results depend on the processing

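The scanner files hold no mean signal, so the planned normexp correction was run on the median signal instead, an alternative chosen after seeing the data. Leaving out single arrays gave 0 to 2 passing genes of the 10 for IR-3W minus normal, 2 to 4 for IR-7W minus normal and 0 to 1 for IR-3W minus IR-7W. Over all probes the counts were 2419 to 5736 (4296 with all arrays), 3530 to 7727 (6098) and 33 to 673 (231). For IR-3W minus normal, 1 of the 10 genes passed without a filter on dim probes (Mmp3, adjusted p = 0.0356) and with slide as a random block (Mmp3, adjusted p = 0.0445), and 2 with array weights. For IR-7W minus normal, 7 passed with array weights. For IR-3W minus IR-7W, 3 passed under normexp and with array weights (Timp1, Mmp2 and Mmp9), and 0 under quantile normalization, without the filter, with the replicate block, with slide as a fixed block and within slide 2. Counts of all probes, in the same order of comparisons, were 1331, 14724 and 8717 under normexp, 12265, 15316 and 126 without the filter, and 8879, 10969 and 1113 with array weights. The replicate block gave 1868, 2659 and 0, and cost Mmp3 its IR-7W call (3.89, adjusted p = 0.0635) and Timp1 its call between carcinoma groups (2.16, adjusted p = 0.198). Fits of only 2 groups gave 2009 for IR-3W minus normal and 32 for IR-3W minus IR-7W, probes well above background on all arrays gave 3903 for IR-7W minus normal, and for IR-3W minus IR-7W slide as a random block gave 390 and as a fixed block, or within slide 2, 0. Scaling to the median moved the median of all probes by -0.18 and -0.14 against normal and split the calls as 2098 higher and 2420 lower for IR-3W (2724 and 1572 in the main setting) and 2913 and 3296 for IR-7W (3571 and 2527). Normexp moved it by -0.20, -0.54 and 0.39, and split the calls as 2371 higher and 12353 lower for IR-7W minus normal and 7926 and 791 for IR-3W minus IR-7W (183 and 48 in the main setting). Without the filter the split was 3192 and 9073 for IR-3W and 4025 and 11291 for IR-7W against normal. One called difference turned in sign, that of Mmp15 for IR-7W minus normal, at -0.40 under normexp. Of 737 differences of the 10 genes under alternatives, 33 changed sign, none of them called, the largest of size 0.83. The causes were not tested.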
